A study of Mus musculus with 6 samples.

Results

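The exon pairs described here are all 4627 events listed as mutually exclusive exons in the deposited splicing table, taken from that section of the table by its own header, out of 45595 splicing events in all. They lie in 2561 genes and consist of 4279 distinct pairs of exons, some listed with several flanking exons. The RNA came from N2a (Neuro-2a) cells, a line grown from a mouse neuroblastoma. The labels describe 3 libraries as wild type and 3 as knockouts of Hnrnpdl, whose product hnRNP DL binds RNA and takes part in splicing. The labels name no further allele, clone or treatment, and nothing in them says that the libraries came from separate cultures, so the tests measure the spread between these libraries, which may be technical. The table calls its columns sample 1 and sample 2, with 3 libraries each and no word tying either to a genotype. They are called set 1 and set 2 here, no direction is assigned to the knockout, and libraries are numbered in the table's order.

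In a mutually exclusive pair, a transcript takes 1 of 2 neighbouring exons and leaves out the other. Such pairs often arose when an exon was duplicated, so that the copies encode alternative versions of the same stretch of protein and can be exchanged without loss of the reading frame. Well-known cases are the pyruvate kinase gene Pkm, in which the choice gives the M1 or the M2 enzyme, the tropomyosins, the synaptic protein gene Snap25 and the JNK kinases. In neural cells, exchanges of this kind set properties of channels, membrane fusion proteins and the cytoskeleton.

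The exons of 6 such pairs are printed to show how alike the alternatives are: pairs well known from the literature, a pair of paralogous kinases and the 1 strictly exclusive pair that the authors' table calls different between the sets (Tmem87a, a membrane protein of the Golgi). Each is wholly coding, was read 5′ to 3′ from the GENCODE vM21 transcripts (GRCm38, the assembly of mm10), and has in capitals the bases that differ from the partner exon, or face a gap, in a global alignment. The pair of Pkm lies at chr9:59675029-59675195 and chr9:59675568-59675734 (plus strand), that of Snap25 at chr2:136769743-136769860 and chr2:136770057-136770174 (plus strand) and that of Dnm2 (dynamin 2, which cuts off endocytic vesicles) at chr9:21478899-21479037 and chr9:21480407-21480545 (plus strand). The pair of Mapk8 (JNK1) lies at chr14:33390673-33390744 and chr14:33390242-33390313 (minus strand), that of Mapk9 (JNK2) at chr11:49873836-49873907 and chr11:49874264-49874335 (plus strand) and that of Tmem87a at chr2:120374488-120374559 and chr2:120373911-120373979 (minus strand).
Pkm 5′ exon: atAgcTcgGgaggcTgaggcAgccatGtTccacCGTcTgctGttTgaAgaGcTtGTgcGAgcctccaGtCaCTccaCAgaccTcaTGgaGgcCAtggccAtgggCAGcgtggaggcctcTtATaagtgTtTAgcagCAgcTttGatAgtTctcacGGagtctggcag
Pkm 3′ exon: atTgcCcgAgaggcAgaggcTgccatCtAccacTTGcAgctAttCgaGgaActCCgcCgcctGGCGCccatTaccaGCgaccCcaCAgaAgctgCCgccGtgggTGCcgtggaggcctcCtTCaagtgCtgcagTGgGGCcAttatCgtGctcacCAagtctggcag
Snap25 5′ exon: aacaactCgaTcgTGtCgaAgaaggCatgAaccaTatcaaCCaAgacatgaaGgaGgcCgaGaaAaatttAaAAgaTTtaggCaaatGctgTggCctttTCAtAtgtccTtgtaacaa
Snap25 3′ exon: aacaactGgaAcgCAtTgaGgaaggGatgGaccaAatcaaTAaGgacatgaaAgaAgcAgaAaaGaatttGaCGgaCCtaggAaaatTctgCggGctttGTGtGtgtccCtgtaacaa
Dnm2 5′ exon: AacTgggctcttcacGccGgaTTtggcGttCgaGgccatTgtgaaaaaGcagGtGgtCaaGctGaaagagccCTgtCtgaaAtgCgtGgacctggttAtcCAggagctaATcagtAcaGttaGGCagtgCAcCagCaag
Dnm2 3′ exon: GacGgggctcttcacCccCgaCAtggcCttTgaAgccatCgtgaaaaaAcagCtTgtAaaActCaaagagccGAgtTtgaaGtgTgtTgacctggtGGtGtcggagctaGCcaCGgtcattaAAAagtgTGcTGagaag
Mapk8 5′ exon: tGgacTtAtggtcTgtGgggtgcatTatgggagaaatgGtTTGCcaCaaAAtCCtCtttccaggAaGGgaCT
Mapk8 3′ exon: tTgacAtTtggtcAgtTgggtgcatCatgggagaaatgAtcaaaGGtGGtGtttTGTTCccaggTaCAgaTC
Mapk9 5′ exon: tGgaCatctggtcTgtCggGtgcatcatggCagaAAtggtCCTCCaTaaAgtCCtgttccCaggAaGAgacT
Mapk9 3′ exon: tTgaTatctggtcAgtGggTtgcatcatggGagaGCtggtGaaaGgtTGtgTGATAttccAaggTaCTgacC
Tmem87a 5′ exon: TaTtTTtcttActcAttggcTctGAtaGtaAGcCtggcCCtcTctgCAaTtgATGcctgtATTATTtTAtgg
Tmem87a 3′ exon: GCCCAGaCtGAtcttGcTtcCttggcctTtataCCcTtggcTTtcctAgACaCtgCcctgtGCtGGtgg

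In Pkm 117 of 167 bases were identical (70.1%), in Snap25 87 of 118 (73.7%) and in Dnm2 103 of 139 (74.1%). In Tmem87a the exons differ in length, 72 against 69 bases, and 42 bases were identical (58.3% of the longer exon). Mapk8 and Mapk9 each had 50 of 72 identical bases (69.4%). Between the JNK genes, exons at the same position were 75% to 93.1% identical, with Mapk8 and Mapk10 (JNK3) sharing 93.1% of the 5′ exon, while exons at different positions shared 68.1% to 75%.

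The table counts, in each library, the reads on the junctions of the form with 1 exon and on those of the form with the other. Which exon is counted as included could be settled from the form lengths: in all 4627 events they equal 148 bases plus the length of the exon that comes first along the transcript, up to 298 bases, and in 4099 events the opposite reading fails. The level reported here is therefore the share of the 5′ exon, from 0 to 1, scaled by form length. As a second check, 3033 exon counts could be compared with a skipped-exon event of the same exon and flanks, and all 3033 were equal in all 6 libraries. The mutually exclusive events hold between 1743173 and 2356548 junction reads per library, and library 1 of each set is the deepest. A total of 4277 events (92.4%) in 2393 genes had a mean of 20 or more reads per library and were tested. Hnrnpdl itself has no mutually exclusive event; its most-read event, a skipped exon, had 2014, 1806 and 1760 reads in set 1 and 2569, 2146 and 2034 in set 2. Scaled to 1000000 reads of the table these were 120.5, 128.7 and 129.7 in set 1 and 141.3, 150.6 and 150.6 in set 2, which do not overlap. No genotype was read from these counts. Of 13 neuronal and neuroblastoma markers, 7 had an event with 20 or more reads (Map2, Gap43, Dbh, Elavl4, Snap25, Dlg3 and Mapt); none of the 4 astrocyte, 4 oligodendrocyte, 4 microglia and blood, 4 fibroblast or 3 endothelium markers did.

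In most of the listed pairs that an annotated transcript joins and whose reads could be split, nearly all reads joined the exons. Pairs without an annotated join are outside this statement. The 5′ form of an event sums the junction into the 5′ exon and the junction from it past the 3′ exon, and the 3′ form likewise, so a transcript with both exons adds reads to both forms. Skipped-exon events of the same gene give single junctions and allowed 3 kinds of reads to be told apart: those with the 5′ exon without the 3′ exon, those with the 3′ exon without the 5′ exon, and those joining the exons directly to each other. For 3502 pairs (75.7%) in 2154 genes all 3 were counted and an annotated transcript joins the exons; these are called consecutive pairs. Their exclusive share, the reads with 1 exon alone as a percentage of those plus the joining reads, had a median of 1.32% with quartiles of 0.446% and 5.31%. In 3332 of them with 20 or more reads per library the median was 1.22%; in 2548 (76.5%) the share was under 5% and in 167 (5.01%) it was 50% or more. Reads that pass through another exon between the pair are not counted as joining, and where an exclusive junction held more reads than its whole form (163 pairs) no split was made.

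**Figure D1:**
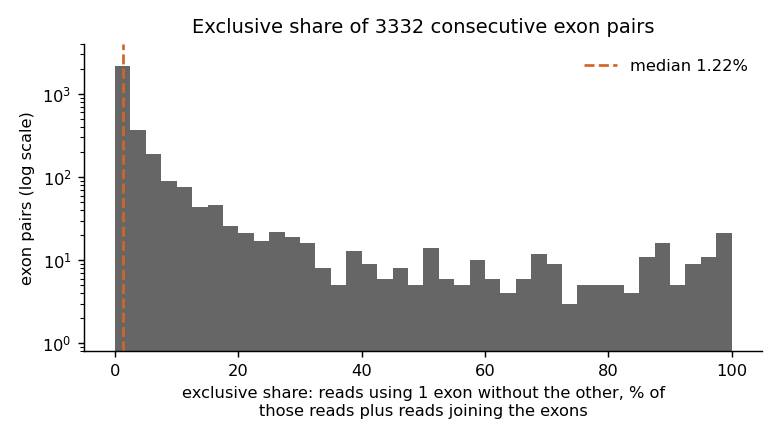
Histogram of the exclusive share (x axis, percent of reads) over the 3332 consecutive pairs with a mean of 20 or more reads per library; the y axis counts pairs on a log scale and the dashed line marks the median of 1.22%. Most pairs lie at the left edge, where nearly all reads join the exons, and 167 pairs lie at 50% or more.

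Of the 6 genes with the most-read events, 5 had pairs of this kind, and Atp5b did not. In Actg1, which encodes gamma-actin, 168807 reads joined exons of 129 and 240 bases and 12 reads in all took 1 without the other. Npm1, for the nucleolar protein nucleophosmin, had 54195 joining and 7 exclusive reads, Eef2, for elongation factor 2, had 39027 and 18, Rps2, for a protein of the small ribosomal subunit, had 60638 and 37, and Ppia, for cyclophilin A, had 75741 and 223. In Atp5b, for the beta subunit of ATP synthase, an annotated transcript holds both exons with another exon between, and none joins them directly. Here 3 reads joined the exons and 7 took only 1. The junction into the first exon held 64674 reads and the junction out of the second 56769, so the pair is not shown to be exclusive. The level of the 5′ exon in the first of these, 0.473, 0.481 and 0.491 in set 1 and 0.457, 0.491 and 0.499 in set 2 for Actg1, thus compares the junction into the first exon with the junction out of the second in the same transcripts.

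A group of 184 pairs in 158 genes (3.98%) had no listed event joining the exons and no annotated transcript holding both. They are called strictly exclusive here; 155 have annotated transcripts with each single exon, 141 are coding in both exons, and 134 had enough reads for the test. A further 941 pairs could be placed in neither group: in 544 an annotated transcript joins the exons, in 392 one holds both with another exon between, and in 5 only reads join them.

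The exons of strictly exclusive pairs resembled each other more in length, although neither length nor sequence was used to choose them. In 43 of 184 (23.4%) both exons had the same length, against 45 of 3502 consecutive pairs (1.28%). The difference in length was a multiple of 3 in 122 (66.3%), against 39.6%. Of the 141 pairs coding in both exons this held for 111. In 52 of these each exon was itself a multiple of 3, and in 59 neither was. Where exons of the latter kind are wholly coding, exchanging them keeps the reading frame but including or skipping both does not. An exon was called coding if annotated coding sequence overlapped any of it, and these counts do not require it to be wholly coding. The median sequence identity was 49.3% against 47.1%, close for the bulk of both groups. An identity of 60% or more was found in 48 of 183 pairs with sequence (26.2%), against 142 of 3482 (4.08%). Identity is a share of the longer exon, so exons of unlike length are held to lower values. The contrast at 60% therefore partly repeats that of length. In the 43 pairs of equal length the median identity was 69.3%, and in the 45 consecutive pairs of equal length 61.5%. The median distance between the exons was 927.5 bases against 2326, and 33 pairs (17.9%) lay within 100 bases of each other, against 3.11%. These are descriptions of the listed pairs with no test, since pairs of 1 gene or of related genes are not independent. Some exon pairs, such as those of Mthfsd and Galnt7, are listed in more than 1 event and count each time.

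**Figure D2:**
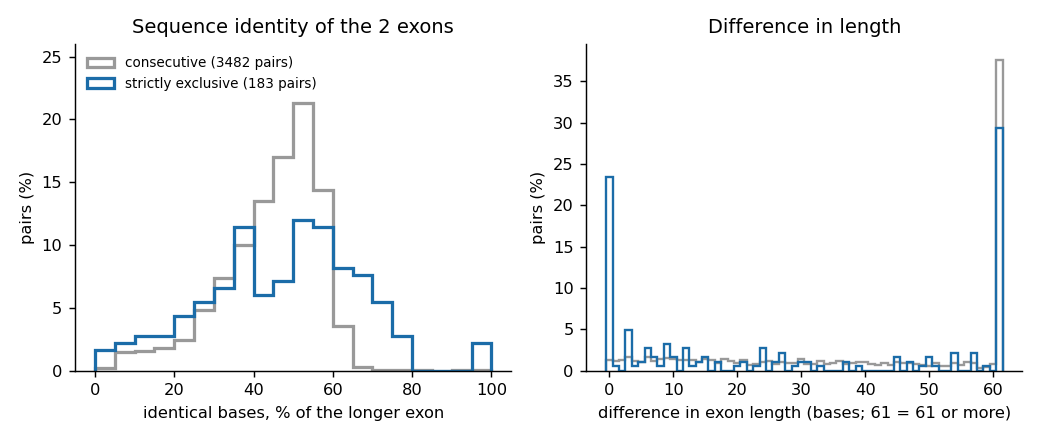
Left, identical bases as a percentage of the longer exon for 183 strictly exclusive and 3482 consecutive pairs (y axis, percent of each group's pairs, in steps of 5 percentage points); right, difference between the lengths of the exons in bases, with longer differences gathered in the last bar. Strictly exclusive pairs reach above 60% identity in 26.2%, against 4.08%, and show a peak at equal length that holds 23.4% of them.

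The strictly exclusive pairs were spread over the whole range of use. Of the 134 tested, 39 had a mean level over 0.9, 28 a level under 0.1 and 67 (50%) a level between. The consecutive pairs had a level between 0.1 and 0.9 in 83.3%. Of the 44 genes on a list of textbook mutually exclusive pairs, 32 have an event in the table and 28 a strictly exclusive pair; 29 such pairs in 25 genes were tested. The 12 without an event include the glutamate receptor genes Gria1, Gria3 and Gria4.

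For Pkm, the 5′ exon, which gives the M1 enzyme of adult muscle and brain, had levels of 0.258, 0.227 and 0.199 in set 1 and 0.265, 0.277 and 0.225 in set 2, from 26345 reads. The sets overlapped (quasi-binomial test, adjusted p = 0.735), and the 3′ exon of the M2 enzyme, the form typical of dividing cells, prevailed in every library. For Slc25a3, the mitochondrial phosphate carrier, the 5′ exon, typical of heart and skeletal muscle, is listed with 224 or with 125 bases against the same 3′ exon. Its levels over all 6 libraries were 0.001 to 0.003 with 224 bases (26203 reads) and 0.001 to 0.002 with 125 bases (26182 reads). Eno1, which encodes the glycolytic enzyme enolase 1 and is not on the list, has a pair of 59 bases each whose 5′ exon had levels of 0 to 0.002 from 34248 reads. P4ha1 and P4ha2, for the prolyl hydroxylases that modify collagen, used both exons, with levels of 0.299 to 0.447 and 0.65 to 0.729.

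Snap25, whose product acts in the fusion of synaptic vesicles, had levels of its 5′ exon, the form that prevails in the embryo, of 0.842, 0.891 and 0.832 in set 1 and 0.882, 0.893 and 0.876 in set 2. The sets overlapped, with adjusted p = 0.735. Dynamin 1, the neuronal form, had levels of 0.861 to 0.937 for its pair of equal length, and dynamin 2, found in all tissues, used both exons, with 0.514, 0.585 and 0.563 in set 1 and 0.467, 0.659 and 0.54 in set 2. Scn8a, for a voltage-gated sodium channel, had levels of 0.905 to 1 from a mean of 75.3 reads per library. Scn9a, with 40.5 reads, ranged from 0.667 to 1, and library 1 of set 1 and library 3 of set 2 both had a level of 1.

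Among cytoskeletal genes, the tropomyosins, which line actin filaments, split widely. Tpm1 had levels of 0.382, 0.462 and 0.445 in set 1 and 0.411, 0.437 and 0.403 in set 2. Tpm3 used almost only its 5′ exon (0.963 to 0.989), and Tpm2 almost only its 3′ exon (levels of 0.025 to 0.103). The alpha-actinin genes, which encode actin cross-linkers, took the 81-base exon over the 66-base exon: Actn1 had levels of 0.95 to 0.956 in set 1 and 0.955, 0.992 and 0.98 in set 2, and Actn4 had 0.896 to 0.978 over all libraries. H2afy, for the histone variant macroH2A1, had levels of 0.993 to 1 for its exon of 100 bases over that of 91.

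Among the kinases on the list, Mapk8 differed most between the sets. It had levels of 0.503, 0.277 and 0.273 in set 1 and 0.54, 0.497 and 0.435 in set 2, from 614 reads of the 5′ and 785 of the 3′ exon. Libraries 2 and 3 of set 1 lay below all of set 2 and library 1 lay within it; the unadjusted p was 0.0143 and the adjusted p 0.735. Without library 1 of set 1 this pair was the only mutually exclusive event called, with a difference of −0.22 in level and an adjusted p of 0.0295 in the quasi-binomial test. Its paralogue Mapk9 had 0.173, 0.151 and 0.143 against 0.176, 0.104 and 0.168, which overlap. Mapk10 had 0.977, 0.96 and 0.949 against 1, 0.979 and 1, with all of set 2 higher, an unadjusted p of 0.0372 and 15 reads of the 3′ exon in all 6 libraries. Mapk14 (p38 alpha) had 0.55, 0.685 and 0.668 against 0.58, 0.574 and 0.55. Fyn, a Src-family kinase with brain and T cell forms, had 0.951, 0.967 and 0.962 against 0.917, 0.949 and 0.929, with all of set 1 higher, an unadjusted p of 0.0466 and an adjusted p of 0.735.

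Among regulators of transcription, Tcf3, whose exons encode the DNA-binding regions of E12 and E47, had levels of 0.268, 0.248 and 0.216 against 0.251, 0.171 and 0.192. The muscle and neuronal transcription factor genes Mef2a and Mef2d had levels of 0.539 to 0.6 and of 0.916 to 0.988 for their most-read strictly exclusive pairs. In U2af1, for the small subunit of the factor that binds the 3′ splice site, exons of 67 bases each had 2269 and 8339 reads, and an annotated transcript holds both, so that it was not counted as strictly exclusive. Its levels were 0.187, 0.184 and 0.224 in set 1 and 0.227, 0.251 and 0.218 in set 2, with library 3 of set 1 within the range of set 2 and an unadjusted p of 0.0267. Fgfr1, a fibroblast growth factor receptor, had levels of 0.007 to 0.038 for the exon of 151 bases against the one of 145; it counted among the consecutive pairs because of an annotated transcript, yet 1024 reads took the 3′ exon alone, 1 the 5′ exon alone and 3 joined them. Of the 29 tested pairs on the list, 14 had a higher and 15 a lower mean level in set 1, the sets did not overlap in 2 (Fyn and Mapk10), 4 had an unadjusted p under 0.05 and 0 were called. Over tested events of all kinds the sets did not overlap in 5.56% and 3.45% had such a p.

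**Figure D3:**
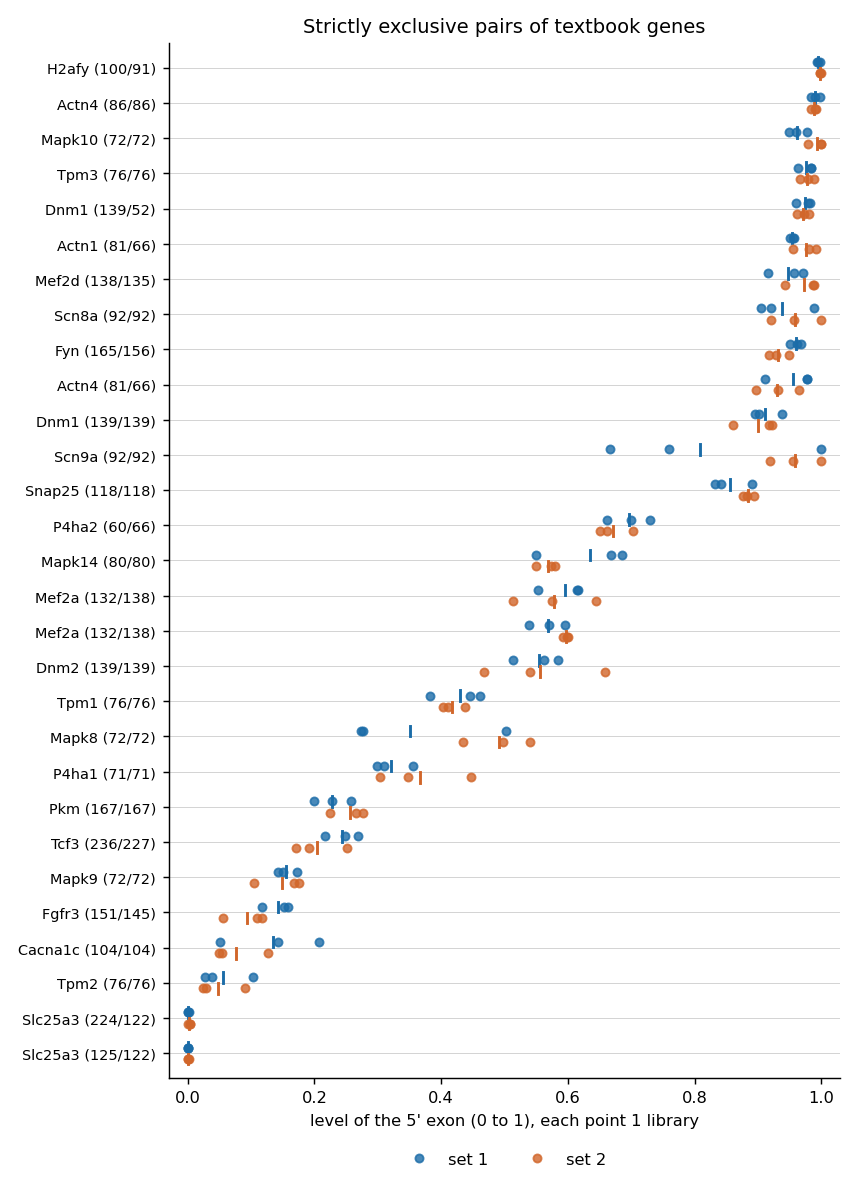
Level of the 5′ exon (x axis, 0 to 1) in each library for the 29 tested strictly exclusive pairs of textbook genes, ordered by mean level, with exon lengths in bases in brackets (5′/3′). Points are libraries, set 1 above and set 2 below, and short vertical bars are the means of 3 libraries; levels span the whole axis and the sets overlap in all pairs but Fyn and Mapk10.

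Outside the textbook list, strictly exclusive pairs of equal length were found in genes with other roles. Acp1, for a low-molecular-weight tyrosine phosphatase, had levels of 0.615 to 0.682 for exons of 114 bases that lie 38 bases apart. Galnt7, for an enzyme of O-linked glycosylation, had 0.337 to 0.509 for exons of 183 bases (72.7% identical), in the event with more reads. Ubr2, a ubiquitin ligase, had 0.261 to 0.421, and Acsl6 and Acsl1, which activate fatty acids, had 0.409 to 0.531 and 0.988 to 1. Rab6a, a GTPase of Golgi traffic, has exons of 106 bases that are 71.7% identical; the 5′ exon had levels of 0.053, 0.059 and 0.056 in set 1 and 0.032, 0.049 and 0.038 in set 2, from 4841 reads. All of set 1 lay above set 2, by 0.016 on average, with an unadjusted p of 0.0361 and an adjusted p of 0.735. Phf21a, for a subunit of a histone demethylase complex, had levels of 0.691, 0.702 and 0.674 against 0.782, 0.762 and 0.841 for exons of 23 and 164 bases. The sets did not overlap (unadjusted p = 0.00551, adjusted p = 0.735). Among the 134 tested pairs, 7 had an unadjusted p under 0.05 (5.22%, against 3.45% of tested events of all kinds), the sets did not overlap in 9 (6.72%, against 5.56%), and 0 were called. These shares are close to the background.

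Within the consecutive pairs, 11 in 11 genes had 20 or more reads of each single form and more of each than of the joined form, although an annotated transcript joins the exons. In some of them both exons are optional and most reads skipped both, so the count does not show that the exons are alternatives. Calu, for the calcium-binding protein calumenin, had 2324 reads of the 5′ and 3555 of the 3′ exon alone and 32 joining reads; both exons are 194 bases long and 67.5% identical, and the levels were 0.409, 0.405 and 0.414 in set 1 and 0.377, 0.456 and 0.443 in set 2. Ate1, for the arginyltransferase, had 363, 254 and 14 reads in the same order, with exons of 129 bases each. In Celf1, an RNA-binding splicing regulator, the reads were 122, 525 and 3, with 2895 that skipped both exons; in Clta, the clathrin light chain with neuronal exons, they were 220, 40 and 22, with 2513 that skipped both. Mapt, for the microtubule-binding protein tau, had 221 reads of the 87-base exon alone, 562 of the 66-base exon alone and 94 joining them. Its levels were 0.396, 0.566 and 0.527 in set 1 and 0.365, 0.375 and 0.317 in set 2, all of set 1 higher, with an unadjusted p of 0.00879 and an adjusted p of 0.735. On the exclusive junctions alone the unadjusted p for Mapt was 0.0293 and the adjusted p 0.737. In Epb41l3 the reads were 96, 111 and 79, with 1535 that skipped both. In Pdlim7 the rarer single form and the joined form were nearly equal (73 and 72 reads), as in Sema6d (20 and 19). The other 3 pairs were in Lrrfip2, Cacna1c and Atat1. These 11 were picked after the reads were seen.

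The authors' deposited table calls 16 of the 4627 events (0.346%), with a change in level of 0.10 or more and its adjusted p under 0.05, against 0.645% of all 45595 events. Of the 16, 4 were higher in set 1 and 12 lower; over all events 0.357% were called higher and 0.287% lower. The 3 libraries of each set did not overlap in 11 of the 16. A mean of 20 or more reads was reached by 10. The quasi-binomial test called 0 of 4277, against 0% of 39419 events of all kinds; 161 (3.76%) had an unadjusted p under 0.05, against 3.45% of all events, and the smallest adjusted p was 0.241. Limma on logit levels also called 0, with 207 events (4.84%) at an unadjusted p under 0.05 against 3.3%. Set 1 and set 2 did not overlap in 332 tested events (7.76%), against 5.56% of all events tested.

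Of the 16, 1 (Tmem87a) is a strictly exclusive pair, out of 184 such pairs (3.98% of the list). The 3502 consecutive pairs (75.7%) hold 12 of the calls and the 941 remaining pairs (20.3%) hold 3. The 5′ exon of Tmem87a had 45 of 184, 54 of 145 and 46 of 144 reads in set 1. In set 2 it had 45 of 254, 36 of 155 and 19 of 141. The levels were 0.242, 0.369 and 0.316 in set 1 against 0.175, 0.23 and 0.133 in set 2. All of set 1 lay above all of set 2, the lowest of set 1 by little. In the authors' deposited table the change is 0.13 and the adjusted p 0.0496; in the quasi-binomial test the unadjusted p was 0.00234 and the adjusted p 0.735. Tmem87b, its paralogue, has a pair of 72 bases each with levels of 0.429, 0.542 and 0.645 against 0.354, 0.333 and 0.5, which overlap.

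Reads could be split by form in 13 of the other called events, and in 10 of these the joined form outnumbered the exclusive reads. In Mef2a the called pair (chr7:67316792-67316982 and chr7:67295375-67295578, exons of 191 and 204 bases) is not the strictly exclusive one above. Its levels were 0.675, 0.664 and 0.734 in set 1 and 0.809, 0.783 and 0.801 in set 2, without overlap, but 811 reads joined the exons and 3 took 1 alone. Of its 1233 event reads, 909 crossed the junction into the first exon and 321 the junction out of the second. Mrrf, for the mitochondrial ribosome recycling factor (chr2:36159599-36159690 and chr2:36177115-36177274), had levels of 0.347, 0.255 and 0.329 against 0.502, 0.472 and 0.548, with 596 joining and 4 exclusive reads. The authors' deposited table gives it a change of −0.20 with adjusted p = 0.00547; p was 4.39e-04 before and 0.641 after adjustment in the quasi-binomial test. Pld3, a lysosomal nuclease, had 592 joining and 4 exclusive reads and levels of 0.161, 0.341 and 0.209 against 0.107, 0.06 and 0.093. In these 3 genes the difference between sets lies in the outer junctions.

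Itgb3bp, for a centromere protein (chr4:99802097-99802232 and chr4:99798696-99798762), had levels of 0.62, 0.562 and 0.522 against 0.789, 0.783 and 0.654. Of its reads 369 joined the exons, 303 skipped both and 16 took 1 alone, so the exons were mostly included or skipped together. Usp34, a deubiquitinase (chr11:23320661-23320748 and chr11:23333439-23333859), had levels of 0.168, 0.235 and 0.154 against 0.276, 0.316 and 0.313. It had 851 joining reads, and its reads of the 5′ exon without the 3′ exon were 0, 0 and 0 in set 1 and 18, 6 and 14 in set 2; this junction was singled out after its values were seen, and it was not tested. Sgms1, for a sphingomyelin synthase, had levels of 0.147, 0.185 and 0.137 against 0.398, 0.524 and 0.264 for exons annotated as UTR, with 333 joining and 22 exclusive reads. Rbms3, an RNA-binding protein, had 272 joining and 42 exclusive reads and levels of 0, 0.074 and 0 against 0, 0.199 and 0.245, which overlap.

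Ank3, for ankyrin-G, the membrane anchor of the axon initial segment, was the called event of highest exclusive share (93.7%). Its exons of 63 and 54 bases (chr10:69904448-69904510 and chr10:69920438-69920491) are both optional: 273 reads skipped both, 120 took the 5′ exon alone, 14 the 3′ exon alone and 9 joined them. The levels were 0.873, 0.842 and 0.879 in set 1 and 1, 0.953 and 1 in set 2, without overlap. They rest on few reads, since the 3′ form had 5, 9 and 5 reads in set 1 and 0, 1 and 0 in set 2. The authors' deposited table gives 0.00499 as the adjusted p; in the quasi-binomial test p was 0.0196 before and 0.735 after adjustment. Raph1, for the actin regulator lamellipodin, and the long noncoding RNA Pvt1 also had more exclusive than joining reads, 28 against 5 and 47 against 15. In Raph1, however, 214 reads skipped both exons, against 2 in Pvt1. Of the 23 Raph1 reads of the 3′ exon alone, 15 came from library 2 of set 2. Raph1 and Pvt1 had means of 9.67 and 14.8 reads per library and were not tested.

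The remaining called events had few reads or could not be split. Gtsf1, a factor of the piRNA pathway, had levels of 0.359, 0.197 and 0.301 against 0.09, 0 and 0.177, from 38 reads of the 5′ and 151 of the 3′ exon. Nrg1, a ligand of ErbB receptors, had 4.5 reads per library and levels from 0 to 0.827 with overlapping sets. Fbxw2, Fancg and Wdr78 had means of 9.83, 9.33 and 1.67 reads per library, and their sets overlapped.

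**Figure D4:**
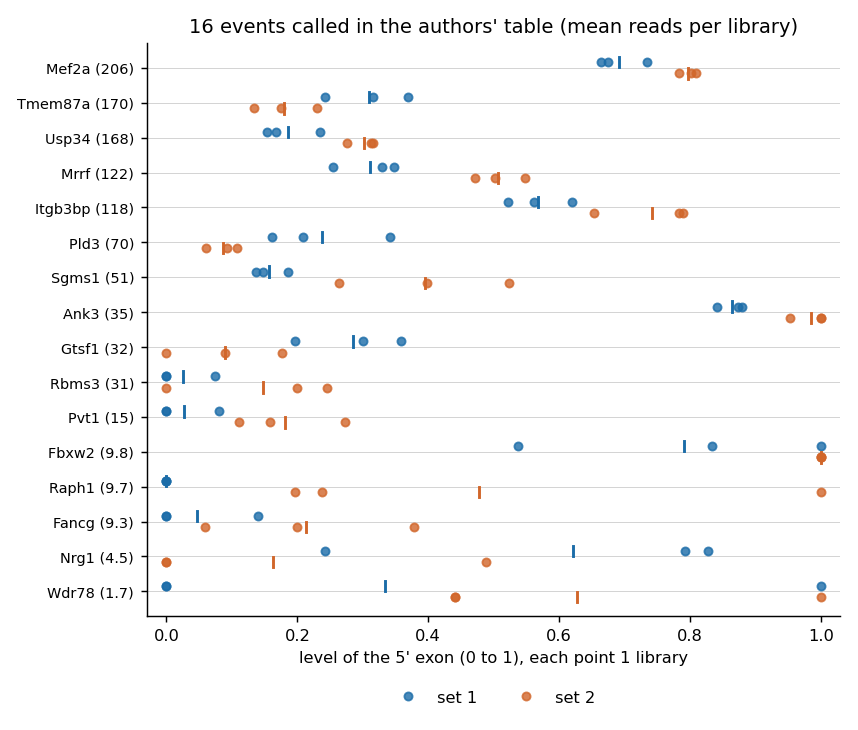
Level of the 5′ exon (x axis, 0 to 1) in each library for the 16 events called in the authors' table, ordered by mean reads per library (in brackets). Points are libraries, set 1 above and set 2 below, and short bars are the means of 3 libraries; from Fbxw2 down the means are under 10 reads and single libraries reach 0 or 1.

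**Figure D5:**
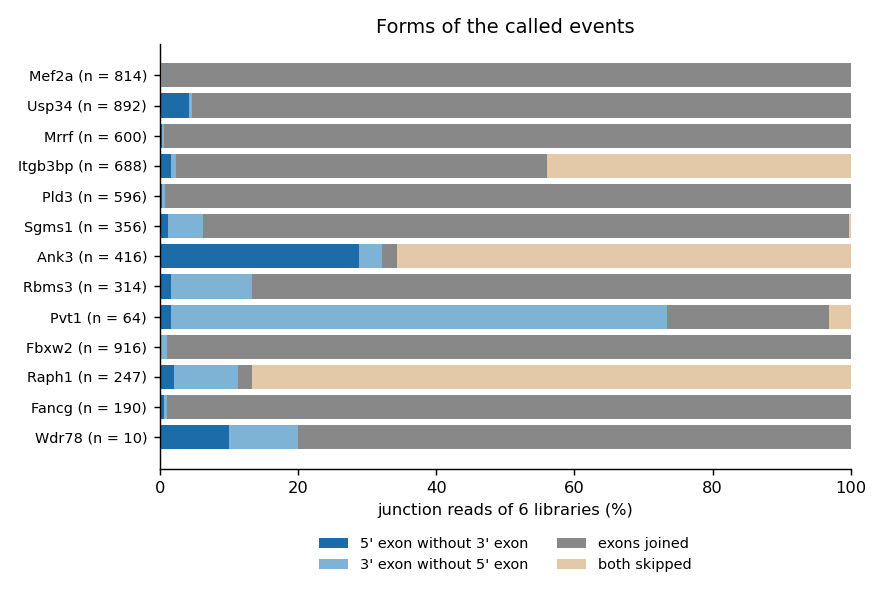
Junction reads of all 6 libraries, in percent, by form for the 13 called events that could be split: the 5′ exon without the 3′ exon, the 3′ exon without the 5′ exon, both exons joined, and both skipped where that junction is listed; n is the number of reads. Grey (joined) is the largest part of the bar in 10 events and a smaller part in Ank3, Raph1 and Pvt1.

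The events of smallest p in the quasi-binomial test were also mostly consecutive pairs. Gnas, for the stimulatory G protein alpha subunit, had levels of 0.019, 0.017 and 0.015 in set 1 and 0.03, 0.028 and 0.035 in set 2, without overlap, from 500 reads of the 5′ and 26075 of the 3′ form. The p was 7.35e-05 before and 0.241 after adjustment (quasi-binomial test), while 15200 reads joined the exons and 51 took 1 alone. Meis2, a homeobox transcription factor, had 0.59, 0.552 and 0.544 against 0.721, 0.733 and 0.728, with tight sets and an adjusted p of 0.735; limma gave an adjusted p of 0.204. Tcp1, for a chaperonin subunit, had 0.064, 0.088 and 0.085 against 0.047, 0.057 and 0.053, with 11788 joining and 12 exclusive reads. Hpf1, a cofactor of PARP enzymes, had 0.02, 0.085 and 0.027 against 0.012, 0.003 and 0.008. Its 5′ form had 61 reads in all, 31 of them in library 2 of set 1. In Hpf1 629 reads took the 3′ exon alone, 23 the 5′ exon alone and 148 joined the exons. Rnf14, a ubiquitin ligase, had 0.036, 0.007 and 0.073 against 0.094, 0.175 and 0.097. The sets did not overlap in any of these 5, nor in 7.76% of all tested mutually exclusive events. Because these events were picked for a small p between the sets, their separation adds no support of its own. The other 5 of the 10 smallest p were Mrrf, Itgb3bp, Sgms1, Mef2a and Tmem87a, described above. In the authors' deposited table the adjusted p was 2.44e-04 for Hpf1, 0.00158 for Rnf14 and 0.00225 for Gnas, with changes in level below 0.10. There it was 0.055 for Meis2 and 0.0553 for Tcp1.

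Most of the tested pairs of highest identity were near-copies. In Gtf2ird1, a transcription regulator with repeated domains, exons of 193 bases were identical (100%) and exons of 38 bases were 81.6% identical. Gprasp1, for a receptor-sorting protein, has 2 events with exons of 77 bases that are 98.7% identical, and Snhg14, a long noncoding RNA, has exons of 147 bases that are 94.6% identical. Where copies are nearly identical, as in all of these but the 38-base exons, how reads were divided between them is uncertain. None of these 5 had an unadjusted p under 0.05. Hexdc and Wdfy1 hold strictly exclusive pairs that are also 100% identical, with means under 4 reads per library.

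The textbook and cytoskeleton lists each held 1 event called in the authors' table, and the quasi-binomial test called none on any list. The gene lists are short and share genes, so the same event can be counted in several lists. Mapk8, Mapk10 and Fyn are on the textbook and kinase lists, Actn1 is on the textbook and cytoskeleton lists, and U2af1 is on the textbook and RNA-binding lists. Of the 60 events of textbook genes, 55 were tested, 1 had an unadjusted p under 0.05 with a higher level in set 1 and 5 with a lower one, 0 were called by the quasi-binomial test and 1 was called, lower, in the authors' table (the consecutive pair of Mef2a). Of 32 cytoskeletal genes 21 have events, 43 in all; 2 of 40 tested had such a p with a higher and 4 with a lower level, and the authors' table calls 1, Ank3. Of 34 genes for RNA-binding and splicing factors 18 have events, 25 in all with no strictly exclusive pair, and 0 higher and 1 lower of 24 tested had such a p. Of 25 kinase and phosphatase genes 16 have events, 28 in all, and 1 higher and 3 lower of 26 tested had such a p; the authors' table calls none of either list. Over all mutually exclusive events, 68 higher and 93 lower of 4277 tested had such a p (3.76%; 3.45% over all kinds of event), and the authors' table calls 16 of 4627 (0.346%; 0.645% over all kinds). The median absolute difference between sets was 0.0247 for the textbook genes, 0.0147 for the cytoskeleton, 0.0113 for RNA binding and 0.0225 for the kinases, against 0.019 over all tested events.

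Over all tested consecutive pairs, the reads of 1 exon alone made up 3.12%, 3.36% and 3.44% of exclusive plus joining reads in set 1 and 3.18%, 3.28% and 3.51% in set 2, which overlap. The median over pairs was 0.793%, 0.717% and 0.69% in set 1 and 0.952%, 0.966% and 1.01% in set 2, which do not overlap. The exact two-sided permutation p of the medians was 0.1, the smallest that 3 libraries against 3 can give, and that of the summed shares was 1. Both measures are read from the same reads. A test of the exclusive junctions alone, in the 268 pairs with a mean of 20 or more such reads per library, called 0, with 11 at an unadjusted p under 0.05; the smallest adjusted p, 0.189, was that of a pair in Hnrnph1, an RNA-binding splicing factor, with 549 reads of the 5′ exon alone, 16 of the 3′ exon alone and 6945 joining them.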

How the data were processed

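RNA of 6 N2a libraries was sequenced; the submitters' processing notes name mm10 as the build and HISAT2 2.1.0, HTSeq 0.6.0 and Bowtie2 2.2.3 without roles, and the splicing caller's version is not given in the sources used here. The authors deposited 1 table in the layout of rMATS; per the file headers, its cells list the junction counts of 3 libraries, form lengths, levels from 0 to 1, p-values and adjusted p-values. The other units of the deposited table, such as coordinates, are used as written, 1-based here. The largest gap between recomputed and deposited levels was 5e-04. No column of per-library values was left out.

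A moderated quasi-binomial test (R 4.3.3, limma 3.58.1) was fitted by kind of event where the mean count was at least 20; Benjamini-Hochberg adjustment covered the 39419 tested events of every kind. It had a dispersion of at least 1, and a call at an adjusted p under 0.05 and a change of 0.10 or more. It was tested on simulated data. Single junctions were taken from skipped-exon events; reads over several junctions count once, and 2 estimates of the joining junction differed by a median of 0.316% (3845 pairs). Annotation and sequence came from GENCODE vM21, aligned with Biopython 1.88. Members, lists and the form of the test were chosen with earlier results of these data known. Named events are the authors' calls, the most-read event of 12 textbook genes, the 10 of smallest p, the 6 most read and the 6 of highest identity, of which 1 is not reported here, and others were chosen after their values were seen. Alternatives were other count minimums, dispersion priors, thresholds, level definitions and leaving out each library.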

Additional observations from a re-analysis of the deposited data

How the results depend on the processing

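The quasi-binomial test called 0 events under each alternative run on all 6 libraries: no count minimum, a minimum of 50, both other dispersion priors, limma, adjustment within the mutually exclusive events, no minimum change, the exclusive junctions alone and the strictly exclusive pairs alone. Leaving out 1 library gave 0 to 1 calls, the 1 being Mapk8 without library 1 of set 1. The authors' 16 calls became 4 at an adjusted p under 0.01, 5 at a change of 0.20 or more, 10 at a mean of 20 or more reads and 1 among strictly exclusive pairs; they were 24 with no minimum change, 16 counted by gene and 11 without overlap of libraries. The median exclusive share of 1.22% became 1.01% at a minimum mean count of 50 and 1.07% in set 1 alone, and was 1.23% in set 2 alone and 1.21% with reads that skip both exons counted. The differences in level of the 100 named events moved by more than the spread of the libraries only for Gnas (−0.01) and Meis2 (−0.14), when reads were not scaled by form length, and no called event changed direction. The alternatives on exclusive junctions, strictly exclusive pairs, library overlap and skipping reads were added after seeing the data. An alternative by edgeR was not run, since the table's cells are lists and not single counts. No paired analysis was possible because the table's columns carry no replicate number. Events under 20 reads per library are limited by depth: a single read moves their level widely.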
